A study of Homo sapiens with 4 samples.

Results

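The genes described here are 39 enzymes and membrane transporters that handle drugs, bile acids and steroids in the liver, chosen by name from a fixed list and found as 39 of the 44591 genes in the count tables. Their messenger RNA was measured by RNA-seq in 4 libraries labelled HepG2, an established cell line from a human liver tumour. In 2 libraries (siNC, replicates 1 and 2) the cells had received a non-targeting control siRNA, and in the other 2 (siLINC01186, called siSALIS here, replicates 1 and 2) an siRNA against the long noncoding RNA LINC01186, which the study named SALIS. All 4 cultures were kept without serum for 6 h after transfection and then for 24 h in medium with 10% serum. The study describes the replicates as biological repeats in which the siNC was the same and the siRNA sequence against SALIS differed. The labels do not say which of its sequences each siSALIS library received, so the spread within siSALIS includes the sequence used, and the replicate number stands for everything that differed between the repeats.

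Drugs are cleared in stages. Cytochrome P450 enzymes (CYP genes) of the endoplasmic reticulum oxidise them with electrons passed on by POR, the P450 reductase. Conjugating enzymes then attach glucuronic acid (UGT genes), sulfate (SULT genes), glutathione (GST genes) or an acetyl group (NAT genes), and EPHX1 opens reactive epoxides with water. Uptake carriers (SLC and SLCO genes) bring substrates in from the blood, and ATP-driven pumps (ABC genes) push the products out into bile or back to blood. In the liver most of these genes are driven by hepatocyte factors such as HNF4A and by receptors that sense foreign compounds, among them AHR, which switches on CYP1A1, CYP1A2 and CYP1B1.

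The libraries held 14968958 to 17297245 gene counts, so that 3 counts, taken here as the floor of detection, corresponded to 0.169 to 0.21 CPM (counts per 1000000, scaled by TMM factors that even out library composition). Genes were tested if the 4 libraries summed to at least 5 counts, which 23942 genes and 25 of the 39 did. SALIS itself had 15 and 14 counts in siNC and 12 and 14 in siSALIS, a log2 fold change of -0.12 (SE 0.53, unadjusted p = 0.831, edgeR quasi-likelihood test). The targeted RNA was thus not measurably lower at this depth in the libraries labelled siSALIS, and every direction below refers to the labels. By qPCR, the study reported knockdown of SALIS by its siRNAs in HepG2. Whether that holds for the sequenced cultures was not tested. The labelled cell line was checked against 8 markers of hepatocytes and HepG2. ALB, the gene for serum albumin, had 0 counts in both replicate 1 libraries, 15 in siNC replicate 2 and 14 in siSALIS replicate 2. Leaving out HNF4A, the other 7 markers (ALB, APOA1, APOB, TTR, SERPINA1, FGB and AFP) summed to 3 and 6 counts in the replicate 1 libraries and to 89 and 74 in the replicate 2 libraries, or 0.179 to 5.51 CPM. HNF4A had 79 to 188 counts. Markers of other cells were present in part: the bile duct list (KRT7, KRT19, EPCAM, SOX9) summed to 261 to 387 CPM, mostly KRT7, and the stellate cell list (COL1A1, DCN, PDGFRB) to 34.4 to 67.8 CPM. The leukocyte list (PTPRC, CD68, LYZ) summed to 50.9 to 55.2 CPM, nearly all CD68, with PTPRC at 0 to 2 counts, and the endothelial list (PECAM1, CDH5, VWF) to 1.79 to 3.22 CPM. The data therefore went against the label, since the secreted proteins that define the named line were at or near 0, and the libraries are referred to only as labelled HepG2. The study's supplement also holds an STR authentication (short tandem repeats of the genome) that matched its stock to this line. It bears on the stock, and whether it covers the sequenced cultures was not tested.

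In siNC, the 39 genes spread over a wide range, from substantial RNA to none, with low levels in between. Of the 39, 16 had more than 3 counts in both siNC libraries, and 14 reached a TPM of at least 1 in both (transcripts per 1000000, the deposited value that corrects for gene length). Another 16 had at most 3 counts in every one of the 4 libraries, and 7 of these had no count at all: CYP2C8, CYP4F2, CYP7A1, UGT2B4, UGT2B7, GSTA1 and GSTA2. A count of 0 allows up to 3 counts, so these genes were below 0.21 CPM in each library, not shown to be absent. Genes are compared with each other only by TPM, and only within siNC, because 1 short RNA (MIR6087) took between 11579 and 138471 TPM of a library and pressed down the other TPM values unequally.

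GSTP1 and GSTA1 mark the ends of this range, and the sequences around their starts are shown to set the gene with the most RNA beside one with none. GSTP1 encodes the pi class glutathione transferase, a form that adult hepatocytes make little of. GSTA1 encodes an alpha class form that is abundant in adult hepatocytes. Each sequence runs from 250 bases before to 50 bases after the start (RefSeq, GRCh38.p14), 5′ to 3′ on the gene's strand, with every CG dinucleotide in capitals.
GSTP1, chr11:67583562-67583861, plus strand: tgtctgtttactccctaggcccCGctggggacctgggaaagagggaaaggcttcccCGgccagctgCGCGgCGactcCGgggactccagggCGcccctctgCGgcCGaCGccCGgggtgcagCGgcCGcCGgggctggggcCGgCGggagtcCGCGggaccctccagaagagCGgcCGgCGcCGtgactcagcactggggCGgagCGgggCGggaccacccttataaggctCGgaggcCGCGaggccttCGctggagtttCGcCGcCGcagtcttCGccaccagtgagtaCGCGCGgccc
GSTA1, chr6:52803767-52804066, minus strand: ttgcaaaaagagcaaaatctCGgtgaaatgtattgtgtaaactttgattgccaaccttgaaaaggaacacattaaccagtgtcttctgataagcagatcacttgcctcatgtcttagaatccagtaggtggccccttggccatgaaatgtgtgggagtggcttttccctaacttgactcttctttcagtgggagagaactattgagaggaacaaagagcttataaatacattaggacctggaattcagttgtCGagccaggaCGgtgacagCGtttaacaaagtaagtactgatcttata
The GSTP1 window held 36 CG dinucleotides and the GSTA1 window 4, against a median of 22 in 14511 windows of protein-coding genes. The pair was chosen for its levels, and other members did not follow it: the ABCC2 window held 1 CG at 58.7 TPM and the CYP27A1 window 29 at 0.877 TPM. DNA methylation was not measured, and the counts describe the letters only.

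Among the conjugating and hydrolysing enzymes, GSTP1 had 7113 and 8099 counts in siNC, or 1056 ± 133 TPM (SD, n = 2), above 99.45% of protein-coding genes. EPHX1, the microsomal epoxide hydrolase, stood at 88.9 ± 14.7 TPM, and SULT1A1, a sulfotransferase for phenols, at 29.0 ± 0.504 TPM. EPHX1 overlaps TMEM63A and an antisense transcript, and SULT1A1 has near copies (SULT1A2, SULT1A3, SULT1A4) with which it can share reads. The other members of this role were low or undetected. UGT1A1, which conjugates bilirubin, had 2 and 15 counts in siNC, and UGT1A6, which prefers small planar phenols, had 3 and 17. UGT2B4 and UGT2B7, glucuronosyltransferases for bile acids and steroids, and GSTA1 and GSTA2 had none. SULT1E1, the oestrogen sulfotransferase, SULT2A1, which acts on steroids and bile acids, and NAT2, which acetylates arylamine drugs, each had a single count in 1 of the 4 libraries.

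The P450 enzymes that oxidise foreign compounds were led by CYP1B1, an AHR target that adult liver expresses weakly. It had 1046 and 1081 counts in siNC, or 27.4 ± 1.59 TPM, above 72.8% of protein-coding genes. CYP1A1, the classical AHR target, followed at 4.56 ± 2.29 TPM and differed between the siNC libraries (61 and 122 counts). CYP2D6, which oxidises many basic drugs, stood at 3.31 ± 0.847 TPM, but its near copies CYP2D7 and CYP2D8P held 30 to 44 counts each in siNC and reads may be split among them. Within the CYP3A family, CYP3A5 stood at 2.41 ± 0.528 TPM and the fetal form CYP3A7 at 0.733 ± 0.0196 TPM. CYP3A7 overlaps a read-through transcript, CYP3A7-CYP3A51P, that had 12 and 9 counts in siNC. CYP3A4, the main drug-oxidising P450 of adult liver, had 2 and 0 counts in siNC and 1 and 2 in siSALIS. CYP2E1, which oxidises ethanol and paracetamol, had 6, 3, 1 and 5 counts over siNC replicates 1 and 2 and siSALIS replicates 1 and 2, and CYP2A6, the nicotine oxidase, had 2, 4, 0 and 2. CYP1A2, which oxidises caffeine, and CYP2B6, which handles bupropion and efavirenz, each had 1 count in 1 library, CYP2C19, which activates clopidogrel, had 2 counts in 1 library, and CYP2C8, which oxidises paclitaxel, had none.

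Of the 4 P450 enzymes for lipids and bile acids, only CYP27A1, the mitochondrial sterol 27-hydroxylase, had more than 3 counts in both siNC libraries (9 and 21, or 0.877 ± 0.522 TPM). CYP7A1, the rate-limiting enzyme of bile acid synthesis, and CYP4F2, an omega-hydroxylase of fatty acids and vitamin K, were at 0 in all 4 libraries. CYP8B1, which is needed for cholic acid, had 1 count in 1 library. The P450 reductase POR and the receptor AHR were both well represented in siNC. POR stood at 125 ± 12.7 TPM and AHR at 47.1 ± 1.89 TPM, above 93.9% and 82.2% of protein-coding genes. POR overlaps TMEM120A, which had 445 to 659 counts a library, and AHR lies over an antisense transcript with 44 to 56. Whether strand was used in counting is not given.

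The transporters were also uneven in siNC. Of the efflux pumps, ABCC2, which exports conjugates into bile, stood at 58.7 ± 4.89 TPM, and ABCC3, which exports them to blood, at 36.5 ± 9.42 TPM. ABCG2, a pump for sulfates and many drugs, stood at 4.09 ± 0.252 TPM, and ABCB1, the multidrug pump P-glycoprotein, at 1.51 ± 0.192 TPM. ABCB1 overlaps RUNDC3B, which had 12 to 35 counts a library. ABCB11, the bile salt export pump, had 1, 0, 4 and 0 counts over the 4 libraries in the order given above, and ABCB4, which moves phosphatidylcholine into bile, had 0, 2, 2 and 1. Among the uptake carriers, SLCO1B3, an organic anion carrier, stood at 5.75 ± 0.480 TPM. SLCO1B1, its close relative, had 7, 3, 9 and 4 counts, and SLC10A1, the sodium-dependent bile acid carrier, had 5, 3, 3 and 7. By TPM, GSTP1 stood far above POR, the next in order, whereas neighbours such as CYP1A1, ABCG2 and CYP2D6 did not differ beyond the spread of CYP1A1 over the 2 siNC libraries.

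The first comparison asked whether the genes differed between the libraries labelled siSALIS and siNC. None of the 25 tested passed a limit when the replicate number was left out of the fit. In bulk RNA, fewer cells of a type and less RNA per cell cannot be told apart. By the edgeR quasi-likelihood test, 0 of the 25 genes tested had a Benjamini-Hochberg adjusted p under 0.05, 0 had an unadjusted p under 0.05, and 0 passed the study's own limits (a log2 fold change beyond 1 with an unadjusted p under 0.05). DESeq2, also without the replicate number, called 0 of the 25 at an adjusted p under 0.05, and 1 gene in the whole table. Over all 23942 genes the same 3 limits were passed in the edgeR fit by 0, 1.21 and 0.756% of genes. Both fits left differences between the replicate numbers in the error, so the lack of calls does not show that nothing changed. With the replicate number as a term in edgeR, 1 of the 25 (CYP1B1, unadjusted p = 0.0196) and 2005 of all genes had an unadjusted p under 0.05. None of the 25 then passed an adjusted p under 0.05. In the 18 genes with a mean of at least 10 counts, log2 fold changes ran from -0.37 (CYP27A1) to 0.87 (UGT1A6), with a median of 0.0406 and a median size of 0.183. Over the 16571 genes of the whole table with such a mean, the median was -0.0025 and the median size 0.142.

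CYP1B1 had the smallest unadjusted p of the 25. It measured 62.4 and 67.0 CPM in siNC and 90.8 and 68.5 CPM in siSALIS, a log2 fold change of 0.30 (SE 0.20, unadjusted p = 0.172). With 1 library left out it ran from 0.0837 (without siSALIS replicate 1) to 0.484 (without siSALIS replicate 2). The groups did not overlap, but the siSALIS replicate 2 library lay close to the siNC libraries and only siSALIS replicate 1 stood clear of them. ABCG2 was the other gene tested whose siSALIS libraries (157 and 183 counts, or 11.0 and 10.3 CPM) both lay above the siNC libraries (9.37 and 8.49 CPM), with a log2 fold change of 0.25 (SE 0.25, unadjusted p = 0.342). CYP2A6 was the 1 gene tested whose siSALIS libraries both lay below siNC, and it rested on 8 counts in all. Over all genes tested, 13.6% had higher and 12.4% had lower values in siSALIS without overlap.

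Within each replicate number, siSALIS minus siNC ranged among the 18 genes from -0.83 (CYP3A7) to 1.49 (UGT1A1) in replicate 1 and from -1.46 (CYP27A1) to 0.48 (UGT1A6) in replicate 2, on the log2 CPM scale. CYP1B1 differed by 0.54 in replicate 1 and 0.03 in replicate 2. The CYP1A1 level was 3.64 and 7.56 CPM in siNC and 5.95 and 7.77 CPM in siSALIS, so that siSALIS minus siNC was 0.69 in replicate 1 and 0.04 in replicate 2 on the log2 CPM scale. The siNC replicate 1 library was the low one, and the other 3 lay closer together. UGT1A1 and UGT1A6 differed by 1.49 and 1.45 in replicate 1 and by 0.25 and 0.48 in replicate 2, again with siNC replicate 1 the lowest library. CYP27A1 went in opposite directions, 0.83 in replicate 1 and -1.46 in replicate 2, on 7 to 21 counts a library. ABCC2 was lower in siSALIS in both, by -0.18 and -0.23, while its groups (156 and 137 CPM in siNC, 138 and 117 CPM in siSALIS) overlapped. Across the 18 genes, 11 were higher in siSALIS in replicate 1 and 9 in replicate 2, and 12 had the same sign in both (7 higher, 5 lower). UGT1A1 and UGT1A6, which share nearly all their reads, both count among the 7. The share with the same sign was not taken over all genes, so these counts are a description only.

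**Figure D1:**
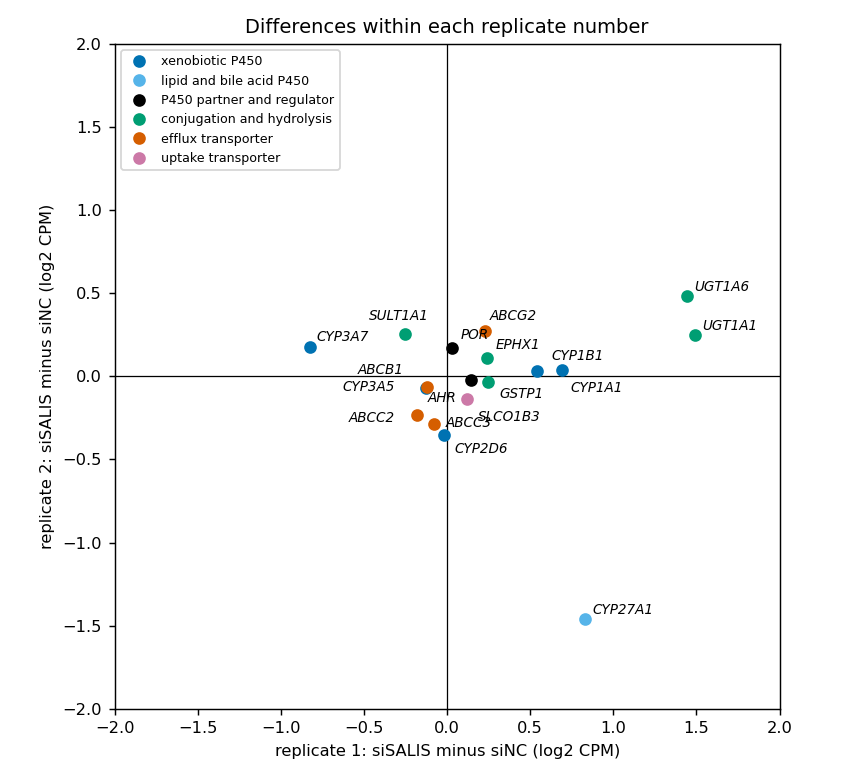
Difference siSALIS minus siNC in log2 CPM within replicate 1 (horizontal axis) and within replicate 2 (vertical axis) for the 18 genes with a mean of at least 10 counts, each point being 1 gene coloured by role. Most points lie near 0 on both axes, while UGT1A1 and UGT1A6 (1.49 and 1.45 in replicate 1) and CYP27A1 (-1.46 in replicate 2) lie apart.

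GSTP1, AHR and POR, among the genes with most RNA, had the smallest standard errors of the genes tested. ABCC2, at a similar CPM to AHR and POR, changed by -0.20 (SE 0.19), and EPHX1 by 0.17 (SE 0.20). GSTP1 measured 425 and 502 CPM in siNC and 504 and 490 CPM in siSALIS, a log2 fold change of 0.10 (SE 0.19). AHR measured 132 and 138 CPM in siNC and 145 and 136 CPM in siSALIS (0.06, SE 0.18). POR measured 154 and 131 CPM in siNC and 157 and 148 CPM in siSALIS (0.09, SE 0.19). For these 3 genes the log2 fold change was smaller than its standard error in this fit, and the siNC and siSALIS libraries were not separated beyond their spread. With the replicate number added as a term, GSTP1 gave 0.106 (SE 0.0948), which exceeds its standard error. POR and AHR then gave 0.0986 (SE 0.11) and 0.06 (SE 0.111), which do not. SLCO1B3 was equally close to 0, at -0.01 (SE 0.27), with 7.52 and 8.36 CPM in siNC and 8.19 and 7.60 CPM in siSALIS. Leaving out siNC replicate 2 brought UGT1A1 and UGT1A6 past the study's limits (log2 fold changes of 2.77 and 2.61, unadjusted p = 0.0222 and 0.0142), where the 1 siNC library left had 2 and 3 counts of them and is assumed to vary like the siSALIS pair.

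**Figure D2:**
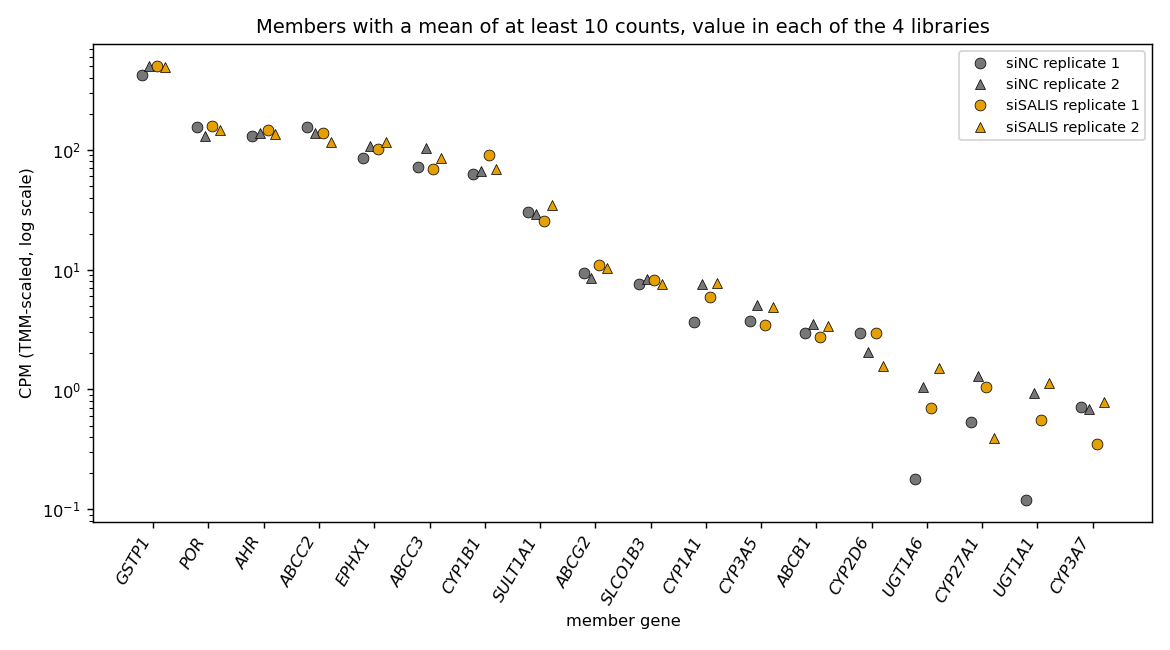
CPM of the genes with a mean of at least 10 counts in each of the 4 libraries, on a logarithmic vertical axis with 1 gene per column, siNC and siSALIS in different colours and replicates 1 and 2 as circles and triangles. The siNC and siSALIS points of GSTP1 (425 to 504 CPM) and AHR (132 to 145 CPM) nearly coincide, and those of UGT1A1 (0.119 to 1.13 CPM) spread most.

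The second comparison set the replicate 2 libraries against the replicate 1 libraries, which across the whole table differed far more than the siRNA groups did. By the edgeR quasi-likelihood test 9.01% of all genes tested had an adjusted p under 0.05 (1064 higher and 1094 lower in replicate 2), 23.4% had an unadjusted p under 0.05, and 5.47% passed the study's limits. Of the 25 drug-handling genes tested, 0 had an adjusted p under 0.05, 5 had an unadjusted p under 0.05 (CYP1A1, UGT1A1, UGT1A6 and ABCC3 higher in replicate 2, CYP2D6 lower), and 2 passed the study's limits (UGT1A1 and UGT1A6). DESeq2 gave 0 and 1 of the 25 at adjusted and unadjusted p under 0.05. The share of members past the unadjusted limit was therefore not above that of all genes. In the 18 genes with a mean of at least 10 counts the median log2 difference was 0.148 and the median size 0.234, against -0.0044 and 0.266 over all genes with such a mean.

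ABCC3 had the smallest adjusted p. It measured 72.5 CPM (siNC) and 68.7 CPM (siSALIS) in replicate 1 and 104 and 85.0 CPM in replicate 2, a log2 difference of 0.42 (SE 0.13, adjusted p = 0.0623). The 2 replicate numbers did not overlap, and siNC replicate 2 was the highest library. CYP1A1 measured 4.80 ± 1.63 CPM (SD, n = 2) in replicate 1 and 7.66 ± 0.147 CPM in replicate 2, with a log2 difference of 0.69 (SE 0.24, adjusted p = 0.0903). The 2 replicate 2 libraries were alike, and the difference was larger in siNC (1.03) than in siSALIS (0.38), a contrast that was not tested. CYP2D6 measured 2.96 ± 0.0322 CPM in replicate 1 and 1.81 ± 0.331 CPM in replicate 2, a log2 difference of -0.71 (SE 0.30, adjusted p = 0.162).

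UGT1A6 measured 0.179 and 0.700 CPM in replicate 1 (siNC, siSALIS) and 1.05 and 1.52 CPM in replicate 2, a log2 difference of 1.59 (SE 0.58, adjusted p = 0.0999). UGT1A1 measured 0.119 and 0.560 CPM in replicate 1 and 0.929 and 1.13 CPM in replicate 2, a log2 difference of 1.63 (SE 0.64, adjusted p = 0.130). These values are not 2 independent observations. The UGT1A genes of chromosome 2 have their own first exons and share the rest, and of the 9 UGT1A genes listed 7, UGT1A1 among them, had exactly equal counts in all 4 libraries. UGT1A6 exceeded UGT1A1 by 1, 2, 2 and 7 counts, so nearly all its reads were counted for both genes. In the hg19 coordinates of the tables, UGT1A1 (chr2:234668919-234681945) lies inside UGT1A6 (chr2:234600321-234681951). The family can be read as 1 signal of 2 to 27 counts a library, low in siNC replicate 1.

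The calls on these genes moved with the settings. CYP1A1, UGT1A6 and ABCC3 passed an adjusted p under 0.05 when the siRNA group was added as a term (0.00972, 0.0283 and 0.00635) and when genes with at least 1 count were tested (0.0331, 0.0251 and 0.0288). Leaving out siNC replicate 2 or siSALIS replicate 1 did the same for CYP1A1 (0.04 and 0.0227) and UGT1A6 (0.0342 and 0.0204), leaving out siSALIS replicate 1 did so for UGT1A1 (0.0379), and leaving out siSALIS replicate 2 for ABCC3 (0.00135). Other settings ended the calls. Without siNC replicate 1 the log2 difference fell to 0.37 for CYP1A1 (unadjusted p = 0.228), 0.88 for UGT1A6 (unadjusted p = 0.168) and 0.87 for UGT1A1 (unadjusted p = 0.221). Without siSALIS replicate 2 the unadjusted p was 0.0722 for UGT1A1 and 0.0826 for UGT1A6. CYP2D6 was past the unadjusted limit without siNC replicate 2 (0.0309) but not without any of the other 3 libraries (0.0769 to 0.169). By DESeq2 ABCC3 was the 1 member past it (unadjusted p = 0.00999).

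The remaining genes showed smaller or uncertain differences between the repeats. Over the 25, 7 lay higher in both replicate 2 libraries than in either replicate 1 library (CYP1A1, CYP3A5, UGT1A1, UGT1A6, EPHX1, ABCB1, ABCC3) and 5 lay lower (CYP2D6, POR, ABCC2, ABCB11, SLCO1B1), against 27% and 25.6% of all genes tested. CYP3A5 measured 3.76 and 3.43 CPM in replicate 1 and 5.08 and 4.84 CPM in replicate 2 (adjusted p = 0.258), and EPHX1 86.0 and 101 CPM against 107 and 116 CPM (adjusted p = 0.244). GSTP1 and AHR overlapped between the repeats, with log2 differences of 0.10 (SE 0.12) and -0.02 (SE 0.12). Of the 8 hepatocyte markers, ALB, APOA1, APOB, SERPINA1 and HNF4A were higher in replicate 2 past the adjusted limit (adjusted p = 0.00655, 0.00219, 0.00943, 0.0313 and 0.00821). AFP and FGB did not pass it (adjusted p = 0.22 and 0.368), and TTR was not tested. All 8 summed to 4.90 and 6.23 CPM in replicate 1 (siNC, siSALIS) and 15.5 and 14.7 CPM in replicate 2. HNF4A made up 4.72, 5.81, 9.97 and 10.6 CPM of these. In siNC 1, siSALIS 1, siNC 2 and siSALIS 2, 5, 4, 1 and 0 of the 8 were at 0. The summed stellate list went from 37.9 and 34.4 CPM (siNC, siSALIS) to 67.0 and 67.8 CPM. In it COL1A1 and PDGFRB passed the adjusted limit (adjusted p = 0.00779 and 0.00195) and DCN did not (0.238). KRT7 went from 365 and 348 CPM down to 265 and 233 CPM. The other 3 genes of the bile duct list did not fall, with log2 differences of 0.10 (KRT19), 0.11 (EPCAM) and 0.24 (SOX9) and adjusted p of 0.889, 0.845 and 0.388. The part of all these markers in the values of CYP1A1, UGT1A6 and ABCC3 was not tested.

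**Figure D3:**
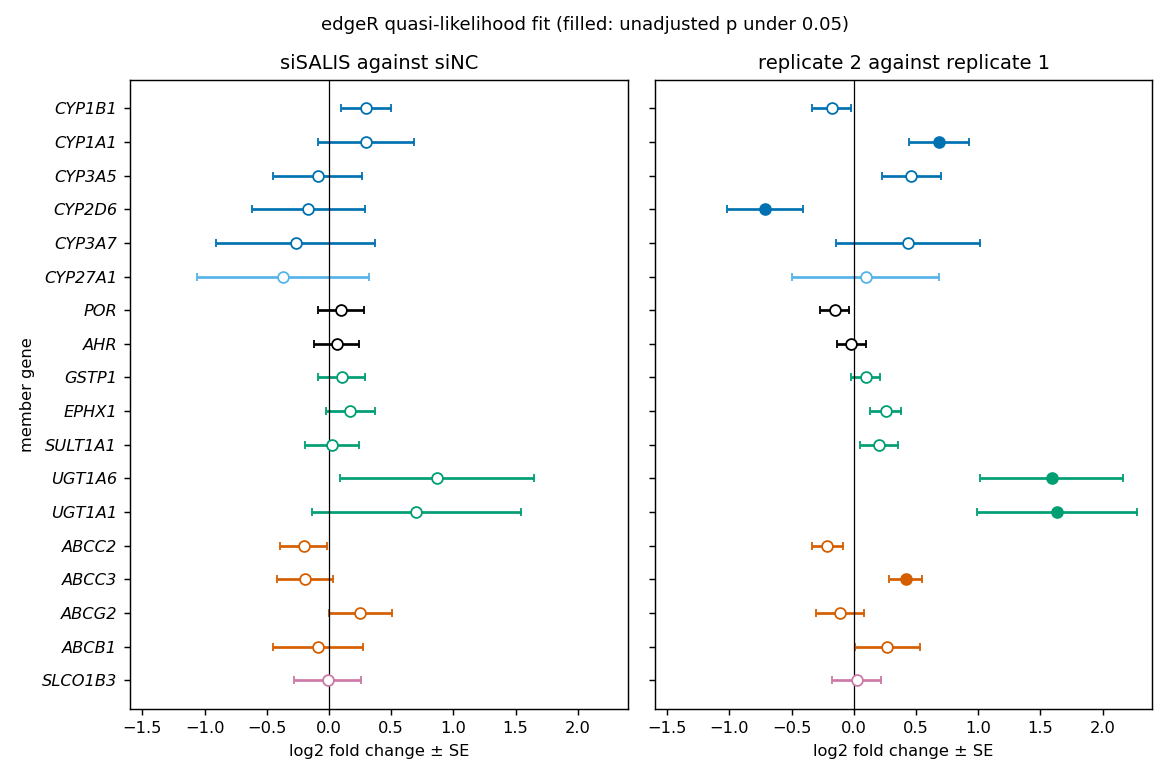
Log2 fold change with its standard error (bars) for the genes with a mean of at least 10 counts, siSALIS against siNC in one panel and replicate 2 against replicate 1 in the other, filled where the unadjusted p is under 0.05. In the siRNA panel every bar or its doubled length reaches 0, and in the replicate panel ABCC3 (0.42, SE 0.13) and CYP1A1 (0.69, SE 0.24) stand furthest from 0 relative to their errors.

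CYP1A1 and CYP1A2 lie head to head on chromosome 15 and share AHR control, yet differed in these libraries, CYP1A1 with 61 to 138 counts and CYP1A2 with 1 count in all. Their start regions are shown in the same frame as above, with the letters GCGTG or their reverse complement CACGC, the core that AHR binds, in capitals.
CYP1A1, chr15:74725479-74725778, minus strand: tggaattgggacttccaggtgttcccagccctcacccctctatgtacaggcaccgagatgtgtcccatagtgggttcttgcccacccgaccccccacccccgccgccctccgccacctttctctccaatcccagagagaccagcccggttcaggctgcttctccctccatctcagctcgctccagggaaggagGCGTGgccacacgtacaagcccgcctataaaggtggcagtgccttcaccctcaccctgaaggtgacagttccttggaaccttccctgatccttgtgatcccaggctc
CYP1A2, chr15:74748595-74748894, plus strand: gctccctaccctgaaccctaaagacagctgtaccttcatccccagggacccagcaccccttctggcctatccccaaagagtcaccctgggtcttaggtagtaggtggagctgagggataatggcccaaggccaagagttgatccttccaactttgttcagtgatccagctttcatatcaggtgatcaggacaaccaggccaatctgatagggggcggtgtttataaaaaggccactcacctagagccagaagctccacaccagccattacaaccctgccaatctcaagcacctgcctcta
The CYP1A1 window held 1 match and the CYP1A2 window none. Of 14511 windows of protein-coding genes, 44.4% held at least 1, so a match in this short stretch is common and is given as a description.

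Of 8 AHR target genes listed (CYP1A1, CYP1B1 and UGT1A6 among them), 7 could be tested and 0 had an unadjusted p under 0.05 between siSALIS and siNC (1.21% of all genes did). This list was named after its values were seen, and CYP1A1 and UGT1A6 were already counted above. Its shares are therefore a description only. Between the repeats 4 of the 7 had an unadjusted p under 0.05, where 23.4% of all genes did, and 0 passed after adjustment. They differed in direction: CYP1A1, UGT1A6 and ALDH3A1, an aldehyde dehydrogenase (log2 difference 0.49, unadjusted p = 0.0281), were higher in replicate 2, and TIPARP, which damps AHR activity, was lower (-0.40, unadjusted p = 0.0336). The TIPARP difference lay in 1 library, siSALIS replicate 2 (49.2 CPM, against 78.3 to 86.9 CPM in the other 3). ALDH3A1 overlapped between the repeats, with 35.9 CPM in siSALIS replicate 1 and 34.2 CPM in siNC replicate 2. The receptors for foreign compounds other than AHR were scarce, with 1 to 4 counts a library for NR1I2 (the pregnane X receptor) and 15 to 25 for NR1I3 (the constitutive androstane receptor).

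Genes of the same pathways, 148 in 6 lists and 4 of them (AHR targets) among the 39, were read beside the set. Of the 114 tested, 0 passed an adjusted p under 0.05 in siSALIS against siNC and 3 (2.63%, against 1.21% of all genes) an unadjusted one: PAPSS2, which makes the sulfate donor (log2 fold change 0.54, unadjusted p = 0.0227), ARNT, the partner of AHR (-0.57, unadjusted p = 0.0267), and NR1H4, the bile acid receptor, with 0, 0, 1 and 8 counts. Between the repeats 14 were higher and 2 lower in replicate 2 at an adjusted p under 0.05, together 14% of the 114 against 9.01% of all genes.

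An adjusted p under 0.05 between the repeats was reached by 9.01% of all genes, in either direction. Among other oxidising and reducing enzymes, 6 of 38 tested rose in replicate 2 and 0 fell. They included AKR1C3 and AKR1C2, reductases of steroids and carbonyls (0.76 and 0.91, adjusted p = 0.00505 and 0.0216), MAOB, a monoamine oxidase (0.76, adjusted p = 0.00483), EPHX2, the soluble epoxide hydrolase (0.99, adjusted p = 0.0273), CYP24A1, which inactivates vitamin D (1.57, adjusted p = 0.00879), and CYP19A1, the aromatase, with 0, 6, 0 and 10 counts over siNC 1, siNC 2, siSALIS 1 and siSALIS 2. FMO4 passed the study's limits only. By level in siNC this list was led by NQO1 (172 ± 1.21 TPM), CBR1 (160 ± 7.99 TPM) and AKR1C3 (130 ± 52.1 TPM). Of 6 further genes listed as partners of P450 enzymes, PGRMC1 fell (-0.68, adjusted p = 0.0455). It measured 132 and 144 CPM in replicate 1 (siNC, siSALIS) and 113 and 59.7 CPM in replicate 2, so the difference was mostly in siSALIS replicate 2. By level in siNC, CYB5B, PGRMC1 and CYB5R3 were highest, at 182, 140 and 89.7 TPM.

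Among other conjugating enzymes, 3 of 32 tested rose in replicate 2 and 0 fell, a share close to the 9.01% of all genes. Those that rose were the glutathione transferases GSTA4 (1.48, adjusted p = 0.00301), GSTM4 (0.63, adjusted p = 0.00868) and MGST3 (0.59, adjusted p = 0.013). At the study's limits UGT1A3, UGT1A4, UGT1A7, UGT1A8, UGT1A9 and UGT1A10 were also higher, which are the shared reads described above, and SULT1A3 was lower. GSTO1, GSTM3 and GSTM1 led this list in siNC, at 125, 123 and 121 TPM. Among other transporters, the cholesterol pumps ABCA1 (1.54, adjusted p = 0.00333) and ABCG1 (1.93, adjusted p = 0.000211) and SLC51B, a subunit of the bile acid exporter (1.00, adjusted p = 0.0376), rose in replicate 2, and SLCO4A1 fell (-0.66, adjusted p = 0.0103), out of 18 tested, against 9.01% of all genes. SLCO4A1, ABCC1 and SLC29A1 led that list in siNC, at 245, 86.1 and 85.5 TPM. Of 16 regulators tested, HNF4A (0.97) and PPARA, a fatty acid receptor (0.63, adjusted p = 0.0121), rose, against 9.01% of all genes. AHRR and RXRA were among the highest regulators by level in siNC, at 89.1 and 72.1 TPM.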

How the data were processed

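Poly(A) RNA of 4 libraries was sequenced (2 siNC, 2 siLINC01186). The authors deposited whole-number counts and TPM per gene. The submitters' processing notes name HISAT2, TopHat2, Bowtie2 and HISAT, without versions or roles, and the build hg19, and the counting program is not given in the sources used here. The deposited TPM values recomputed from counts and lengths and served only for levels within siNC.

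The count model was edgeR 4.0.16, run under R 4.3.3 (TMM, glmQLFit, glmQLFTest) on genes with at least 5 summed counts, with Benjamini-Hochberg adjustment over all 23942 genes tested. DESeq2 1.42.0 was an alternative. log2 CPM used a prior count of 2. The analysis code was tested on simulated data. Total counts ran from 14968958 to 17297245, and the floor of 3 counts covers counting error only. Library pairs of a group differed beyond sampling noise (chi-square per gene 23.4 and 27.2), so all 4 counted as separate libraries.

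Members and lists were chosen with earlier results of these data known. All 39 members are named, with, of the other listed genes, those past a limit and the 3 of each list with the highest siNC TPM. One such gene is not reported here. AHR target genes, the few single genes cited beside them (NR1I2, NR1I3) and the P450 copies were named after their values were seen. Promoter sequences matched 29 of the 39 members, so no promoter count over all members is given. Alternatives were another tool, other filters, the replicate number or group as a term, and each library left out.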

Additional observations from a re-analysis of the deposited data

How the results depend on the processing

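For the 25 members tested, 236 values were recomputed under settings other than leaving out a library. Of these, 230 kept their direction and side of the adjusted limit and 0 reversed. The other 6 passed it in addition (the CYP1A1, UGT1A6 and ABCC3 differences between replicate numbers given above). Over all genes, the siSALIS against siNC count at an adjusted p under 0.05 was 0 by edgeR, 1 by DESeq2, 5 with genes of at least 1 count, and 0 to 6 with 1 library left out. At the study's limits it was 181, against 27 by DESeq2, 46 with edgeR's own filter (filterByExpr) and 248 to 375 with 1 library left out, the highest without siNC replicate 2. Between the replicate numbers the adjusted count was 2158, against 4191 with the siRNA group as a term and 1294 to 3332 with 1 library left out (lowest without siSALIS replicate 1, highest without siNC replicate 2), and the count at the study's limits was 1309, against 655 by DESeq2. The cause of these shifts was not tested. The number of members with more than 3 counts in siNC was 16, and 19 with either siNC library alone.

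With the replicate number as a replicate block, 278 genes (83 higher, 195 lower) passed an adjusted p under 0.05 in siSALIS against siNC and none of the 25 members tested did. CYP1B1 then had a log2 fold change of 0.29 (unadjusted p = 0.0196, adjusted p = 0.411). Same-numbered libraries deviated together (correlation 0.57 over 16571 genes), and the first principal component, with 62.5% of the variance, separated the numbers. With 2 pairs and no label that ties a number to a shared culture or day, this is a hint from the data and not the design.

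Leaving out 1 library at a time reversed 38 of 182 member values, none of them past a limit in the full data. For siSALIS against siNC the log2 fold change ran from -0.137 to 0.92 for CYP1A1, -0.672 to 0.217 for CYP2D6, -1.86 to 0.0437 for CYP2E1, -0.37 to 0.147 for CYP3A5, -0.988 to 0.171 for CYP3A7, -1.2 to 0.394 for CYP27A1, -0.0105 to 0.213 for POR and -0.121 to 2.77 for UGT1A1. It ran from -0.233 to 0.23 for SULT1A1, -0.0142 to 0.23 for GSTP1, -0.26 to 0.0524 for ABCB1, -0.43 to 0.0905 for ABCC3, -0.208 to 0.701 for SLC10A1, -0.416 to 1.14 for SLCO1B1 and -0.084 to 0.0722 for SLCO1B3, and CYP3A4 and ABCB4, tested only without the library where they had 0 counts, gave -0.331 and -0.36. For replicate 2 against replicate 1 it ran from -0.422 to 0.118 for CYP1B1, -0.591 to 1.64 for CYP2E1, -0.95 to 0.727 for CYP27A1, -0.0883 to 0.0538 for AHR, -0.0222 to 0.224 for GSTP1, -0.264 to 0.0449 for ABCG2, -0.453 to 0.628 for SLC10A1 and -0.0374 to 0.0874 for SLCO1B3, and CYP3A4 and ABCB4 gave 0.233 and -0.613. Where a group was left with 1 library, that library was assumed to vary like the other group. Depth limited the scarce members most: 16 of the 39 had at most 3 counts in any library, and no change in them was detectable.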
